A study of Mus musculus with 10 samples.

Results

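The genes described here encode the nuclear subunits of the oxidative phosphorylation system, the 5 enzyme complexes that make most of the ATP of the brain. Membership was set by a rule on the symbol that holds no measured value, but the rule was chosen with earlier results of these data known. It took every gene named by a single-symbol probe that starts with Nduf followed by a, b, c, s or v, with Uqcr or with Atp5. It also took the 4 Sdh genes, Cyc1, Cycs, and the Cox4 to Cox8 genes. The rule found 79 genes on 109 probes, of 9930 genes on 14030 single-symbol probes in all. They fell into 31 genes of complex I, 4 of complex II, 8 of complex III, 16 of complex IV, 15 of complex V and 5 assembly factors that carry an Nduf symbol. Cycs (cytochrome c), Ndufa4 and the subunits encoded by mitochondrial DNA were not analysed here.

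The samples were brains of 5 male Cin85-/- mice, 15 weeks old, each set against 1 pool of brain RNA from male wildtype mice of the same age on two-colour arrays. Cin85 is the adaptor protein encoded by Sh3kbp1, which binds Cbl ubiquitin ligases and takes part in receptor endocytosis. Each mutant mouse was hybridised on 2 arrays, once with its RNA in Cy5 and once in Cy3, which gave 10 arrays. The labels list 5 mice for the pool, while the labelling protocol speaks of 6. Every array held the same pool, so the pool counts as 1 control sample and the spread between wildtype mice was not measured. The sources used here do not give how Cin85 was deleted, the strain background or the meaning of "Kdn" in the mutant source name.

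Complexes I and II take electrons from NADH and succinate, complex III passes them to cytochrome c, and complex IV reduces oxygen. Complexes I, III and IV pump protons across the inner mitochondrial membrane, and complex V, the ATP synthase, lets them flow back to make ATP. In the brain most of this ATP drives ion pumps and synaptic transmission. The nuclear subunit genes are known to share promoter elements, among them sites for the nuclear respiratory factors, which leads many of them to vary together between tissues. Whole brain was extracted, so fewer cells of a type and less RNA per cell cannot be told apart in these ratios.

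The deposited values were log2 ratios, and the arrays held between 16816 and 19424 of them. No channel intensities were analysed here, so there is no level, depth or signal over background to give for any gene, brain markers could not be checked for presence, and precision is set by how many arrays there are. The sources used here do not state the numerator channel, nor if columns with the mutant in Cy3 had been turned to run like the rest. A negative value is therefore called below 0 on the deposited scale, and not lower in the mutant. Most group values are also given with the sign of the Cy3 columns changed before averaging, called the turned reading. The groups by promoter element are given as deposited only. Over all probes, arrays of the same dye orientation had a Spearman rank correlation between 0.175 and 0.409 with the mutant in Cy5 and between 0.233 and 0.363 with the mutant in Cy3. Arrays of opposite orientation had a correlation between -0.423 and -0.140. The array of mouse 3 with the mutant in Cy3 stood apart, with the fewest values, a median absolute deviation of 1.056 against 0.335 to 0.725 on the others, and a correlation between -0.0735 and 0.0641 with every other array. Sh3kbp1 itself was 0.0175, 0.006, -0.162, 0.222 and -0.042 in mice 1 to 5, with a mean of 0.0082 ± 0.139 (SD). This probe did not mark the mutant brains, and since the sources used here do not give the part of the transcript it covers, it checks nothing about the deletion.

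No oxidative phosphorylation gene passed the test in either direction. Of the 79 genes, 75 were measured on both arrays in 4 or 5 mice and were tested with limma on the mean of each mouse's 2 arrays, and 0 of the 75 had a Benjamini-Hochberg adjusted p under 0.05, against 0.0% of all 8711 genes tested. Among all single probes tested, 0.0% of 16939 passed, and so 0 of the 100 tested probes of these genes. The smallest adjusted p of a member gene by limma was 0.918. At an unadjusted p under 0.05, 1 of 75 genes was counted, Atp5o, which is 1.33% against 3.52% of all genes. The 4 genes without a test were Ndufv1, with values on 5 arrays from -0.348 to 4.39, Cox6b2, on 6 arrays from -0.305 to 1.54, Ndufc1, on 8 arrays from -3.32 to 2.22, and Ndufaf3, on 8 arrays from -3.14 to 1.25.

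On the deposited scale the ratios of most tested genes were small. Their median was -0.067 on the log2 scale, against -0.0026 for all genes, and 51 of 75 (68.0%) lay below 0, against 50.6% of all genes. The median over the genes was -0.046, -0.043, -0.076, -0.10 and -0.050 in mice 1 to 5, so it was below 0 in all 5 mice, and between 44 and 49 genes were below 0 in each of them. The SD of a gene between mice had a median of 0.225, against 0.315 for all genes. As deposited, the 95% interval of the mean lay within 1.5-fold of no difference in both directions in 61 of 75 genes (81.3%). Over all genes the share was 65.6%. Such intervals were not counted under the turned reading, where the median size of a member's mean was 0.162 against 0.093 as deposited. The intervals cover the spread between the 5 mutant mice and the arrays, and not that between wildtype mice.

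**Figure D1:**
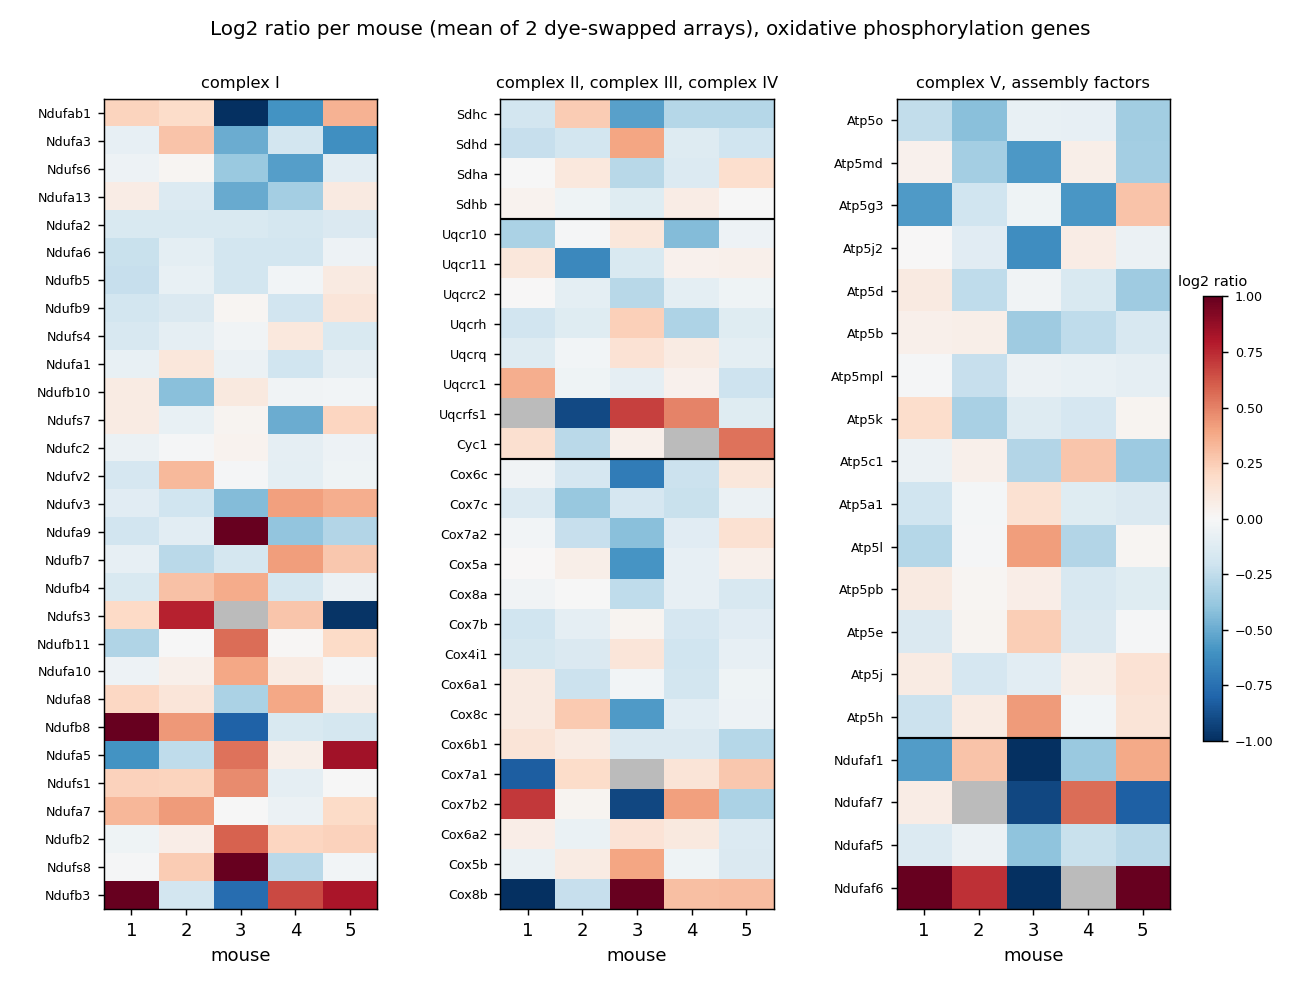
Log2 ratio of each of the 75 tested genes in each mouse, as the mean of its 2 dye-swapped arrays on the deposited scale. Rows are genes sorted by mean within each complex, colours end at -1 and 1, and grey marks a mouse without a value on both arrays. Most cells are pale, and the values beyond 1 in size are in mice 1, 3 and 5.

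Above 0 in every mouse were 0 of the 69 genes measured in all 5 mice, against 244 of 7371 over all genes. Below 0 in every mouse were 7 of the 69 (10.1%), against 3.55% of the 7371 genes. These 7 were Ndufa2 and Ndufa6 of the NADH-oxidising arm of complex I, Cox7c and Cox8a of complex IV, Atp5o and Atp5mpl of complex V, and the assembly factor Ndufaf5. None of them passed the test. With the sign of the Cy3 columns turned, 6 of the 7 had a mean above 0, all but Cox8a.

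The 2 dye orientations did not give the same picture. On arrays with the mutant in Cy5 the median of the 75 genes was 0.0046, with 37 genes below 0 (49.3%, against 55.1% of all genes), and with the mutant in Cy3 it was -0.090, with 46 below 0 (61.3%, against 47.0% of all genes). Over all genes the corresponding medians were -0.051 and 0.027. By mouse, the median on the Cy5 array and then on the Cy3 array was 0.033 and -0.055 in mouse 1, 0.041 and -0.11 in mouse 2, -0.025 and -0.14 in mouse 3, -0.053 and -0.10 in mouse 4, and -0.003 and -0.089 in mouse 5. All 5 mice thus had a lower median on the Cy3 array than on the Cy5 array. 13 of the 75 genes had a mean below 0 in both orientations (17.3%), against 16.0% of all genes, so the share that was below 0 in each orientation was near that of the array as a whole. The part of dye in the 68.0% was not tested apart from these values.

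**Figure D2:**
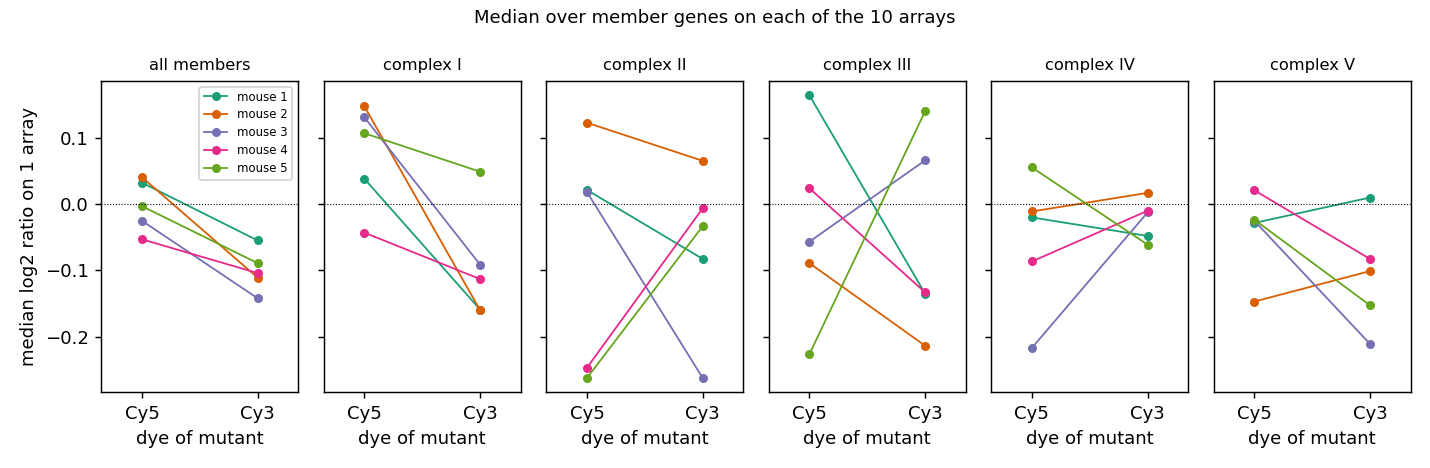
Median log2 ratio over the tested genes on each array, for all members and for complexes I to V, with the mutant in Cy5 at left and in Cy3 at right and a line joining the 2 arrays of a mouse. Over all members every line falls from Cy5 to Cy3, while complexes II to V have lines in both directions.

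Complexes IV and V were mostly below 0, with 12 of 15 genes and a median of -0.074 in complex IV, and 13 of 15 genes and a median of -0.084 in complex V. Complex I was split evenly, with 14 of 29 genes below 0 and a median of 0.0066. Complex II had 4 of 4 genes below 0, with a median of -0.049, and complex III 5 of 8, with a median of -0.053. The median over complex IV genes was -0.032, -0.064, -0.16, -0.10 and -0.062 in mice 1 to 5, and that over complex V genes -0.0092, -0.11, -0.060, -0.12 and -0.088, so both were below 0 in all 5 mice. The median over complex I genes within a mouse was also below 0 in all 5, at -0.062, -0.003, -0.026, -0.089 and -0.009, although the median of the gene means was above 0. With the Cy3 columns turned, the genes below 0 were 14 of 29 in complex I, 2 of 4 in II, 4 of 8 in III, 7 of 15 in IV and 6 of 15 in V. Their medians were then 0.0098, 0.050, 0.011, 0.017 and 0.056 in complexes I to V.

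Between complexes, the mean difference of their medians was smaller than its SD over the 5 mice in all 10 pairs. The median of complex I minus that of complex V was on average 0.041 ± 0.062 (SD, n = 5 mice) and was above 0 in 4 of 5 mice. For complex I minus complex IV it was 0.045 ± 0.060, above 0 in 4 of 5 mice, and for complex IV minus complex V -0.0044 ± 0.057. Complex III minus complex V was above 0 in 5 of 5 mice, with a mean of 0.066 ± 0.078, of which mice 3 and 4 gave 0.14 and 0.16 and the others 0.0027 to 0.013. In complexes IV and V together, 18 of 30 genes were below 0 in each orientation taken alone and 7 in both (23.3%, against 16.0% of all genes). The order of the complexes moved with the arrays: without mouse 5 the median of complex I was -0.032, and without mouse 2 that of complex III was 0.0073.

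**Figure D3:**
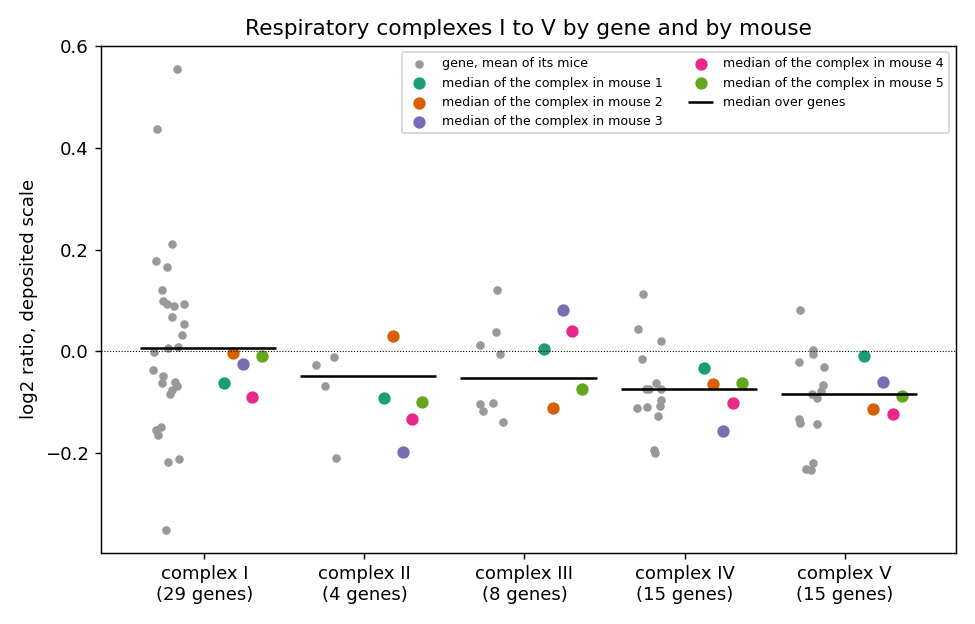
Mean log2 ratio of each tested gene (grey points) with the median over genes (black line), and the median of the complex in each of the 5 mice (coloured points). The mouse medians of complexes IV and V lie below 0 in all 5 mice, from -0.16 to -0.0092, and overlap those of complex I, from -0.089 to -0.003.

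Complex I is an L-shaped enzyme with an N module that oxidises NADH, a Q module that reduces ubiquinone, and a proximal and a distal arm in the membrane. Of the N module 5 of 8 genes were below 0, with a median of -0.034, and of the proximal arm 4 of 6, with a median of -0.049. The Q module had 1 of 5 below 0 and a median of 0.068, and the distal arm 3 of 9 and a median of 0.054. With the Cy3 columns turned, the medians were -0.0044 for the N module, 0.031 for the proximal arm, -0.073 for the Q module (3 of 5 below 0) and 0.21 for the distal arm. The 5 genes with the smallest p in the complex included 4 of the N module and 1 of the distal arm, and 0 of the 5 passed the test.

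Ndufa2, a small accessory subunit of the N module, was -0.154, -0.150, -0.150, -0.172 and -0.146 in mice 1 to 5, a mean of -0.154 ± 0.010 (SD, n = 5; limma adjusted p 0.918). This was the smallest SD among all 8711 genes. The 10 arrays behind it ranged from -0.499 to 0.198, with a mean of 0.0046 in Cy5 and -0.314 in Cy3, and in mice 1, 2 and 3 the 2 arrays lay on opposite sides of 0. Ndufa6, an accessory subunit that binds the acyl carrier protein, was -0.225, -0.101, -0.184, -0.186 and -0.054, with a mean of -0.150 ± 0.070. Its arrays also separated by dye, with a mean of 0.428 in Cy5 and -0.728 in Cy3. Ndufs6, a zinc-binding subunit, was -0.05, 0.016, -0.371, -0.549 and -0.109, a mean of -0.21 ± 0.24 that was -0.13 without mouse 4. In Ndufa7 mice 1, 2 and 5 were above 0 and mice 3 and 4 just below it (0.333, 0.427, 0.188, -0.0025 and -0.056), with a mean of 0.18 ± 0.21, and 0.12 without mouse 2. Ndufb2, of the distal arm, was above 0 in 4 of 5 mice, with a mean of 0.21 ± 0.24 that was 0.12 without mouse 3.

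Several complex I genes owed a large mean to 1 mouse, and in that mouse to 1 of its 2 arrays. Ndufb3, a distal arm subunit, was 2.24 in mouse 1 and -0.764 in mouse 3, with a mean of 0.56 ± 1.14. In mouse 1 it read 4.19 on the Cy5 array and 0.294 on the Cy3 array. Ndufs8, which holds iron-sulphur clusters of the Q module, was 2.24 in mouse 3 and between -0.269 and 0.252 in the other mice. Ndufab1, the mitochondrial acyl carrier protein that complex I shares with fatty acid synthesis, was -1.91 in mouse 3, -0.597 in mouse 4 and between 0.184 and 0.345 in the others. On the Cy3 array of mouse 3, the one that stood apart, Ndufs8 read 4.67, Ndufab1 -3.485 and Ndufb3 -1.84. The Cy5 array of mouse 3 gave -0.188, -0.331 and 0.31 for these genes. With the Cy3 array of mouse 3 left out, by its Cy5 array alone, the median of complex I was -0.035. Ndufv2, an iron-sulphur subunit of the N module, had a mean of -0.0008 ± 0.19, and Ndufc2, in the proximal arm, -0.036 ± 0.048, the latter with an interval from -0.228 to 0.156.

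Complex II, succinate dehydrogenase, is the one respiratory enzyme that is also a step of the tricarboxylic acid cycle, and all its 4 subunits are nuclear. As deposited, the catalytic pair lay close to 0: Sdha, the flavoprotein, had a mean of -0.028 ± 0.18, and Sdhb, the iron-sulphur subunit, of -0.011 ± 0.076. Both separated by dye, with Sdha at 0.144 in Cy5 and -0.199 in Cy3, and Sdhb at -0.248 in Cy5 and 0.225 in Cy3. Under the turned reading their means were 0.17 and -0.24. Sdhc, a membrane anchor that binds haem and ubiquinone, was -0.182, 0.251, -0.540, -0.289 and -0.289 in mice 1 to 5, with a mean of -0.21 ± 0.29. Mouse 2 was above 0 and the other 4 below, and the mean was -0.13 without mouse 3 and -0.33 without mouse 2. Sdhd, the other anchor, was -0.229, -0.181, 0.392, -0.130 and -0.199, so here mouse 3 was above 0 and the other 4 below, and the mean of -0.069 ± 0.26 became -0.18 without mouse 3. The anchors thus agreed in sign in mice 1, 4 and 5.

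In complex III, the cytochrome bc1 complex, the 4 small subunits were below 0 in the mean, with a median of -0.11, while the core proteins Uqcrc1 and Uqcrc2 split and both catalytic subunits were above 0. With the Cy3 columns turned, 1 of the 4 small subunits was below 0, with a median of 0.17, and both core proteins were. Uqcr10, a single-helix subunit, was -0.317, -0.014, 0.112, -0.431 and -0.051 in mice 1 to 5, with a mean of -0.14 ± 0.23, and -0.067 without mouse 4. Uqcrh, the hinge protein at the cytochrome c1 contact, had a mean of -0.10 ± 0.20, with mouse 3 at 0.239 and the other 4 below 0, and of -0.19 without mouse 3 and -0.049 without mouse 4. Uqcrc2 had a mean of -0.10 ± 0.11, which was -0.060 without mouse 3. The catalytic pair was measured in 4 mice each: Cyc1, cytochrome c1, at 0.12 ± 0.33, and Uqcrfs1, the Rieske iron-sulphur protein, at 0.038 ± 0.71, where the mice ran from -0.90 to 0.68.

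In complex IV, cytochrome c oxidase, the catalytic core is encoded by mitochondrial DNA, so the genes here are its nuclear coat. Of the Cox7 and Cox8 genes 7 of 8 were below 0, with a median of -0.091, of the Cox6 genes 3 of 4, with a median of -0.074, and of Cox4i1, Cox5a and Cox5b 2 of 3, with a median of -0.096. With the Cy3 columns turned, 4 of the 8 Cox7 and Cox8 genes were below 0 (median 0.018), 3 of the 4 Cox6 genes (median -0.13) and 0 of the 3 others (median 0.069). Cox7c, a single-helix membrane subunit, was below 0 in all 5 mice, at -0.141, -0.376, -0.170, -0.225 and -0.062, with a mean of -0.19 ± 0.12 (n = 5; limma adjusted p 0.918). Its mean was 0.166 on the Cy5 arrays and -0.555 on the Cy3 arrays. Cox8a, the widely expressed form of the smallest subunit, was -0.039, -0.0045, -0.258, -0.081 and -0.162, with a mean of -0.11 ± 0.10, and here the Cy5 arrays were below 0 (-0.305) and the Cy3 arrays above (0.088). Cox6c had a mean of -0.20 ± 0.31 that rested on -0.699 in mouse 3 and was -0.076 without it. Cox7b was -0.11 ± 0.089, with 4 of 5 mice below 0.

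Several complex IV subunits have a widely expressed form and one known from heart and skeletal muscle or from testis, and both were tested for 4 of them. The widely expressed forms had these means: Cox6a1 at -0.074 ± 0.12, Cox7a2 at -0.13 ± 0.21, Cox7b at -0.11 ± 0.089 and Cox8a at -0.11 ± 0.10. Leaving out 1 mouse put Cox6a1 between -0.12 (without mouse 1) and -0.040 (without mouse 2), with -0.047 without mouse 4, Cox7a2 between -0.20 (without mouse 5) and -0.055 (without mouse 3), and Cox8a at -0.072 without mouse 3. Under the turned reading, the 4 means were -0.33, -0.26, 0.13 and -0.20 in the same order. The muscle forms were Cox6a2 at 0.019 ± 0.12, Cox7a1 at -0.062 ± 0.51 in 4 mice and Cox8b at 0.11 ± 1.17, and the testis forms Cox7b2 at -0.016 ± 0.63 and Cox8c at -0.074 ± 0.31. Cox8b ran from -1.53 in mouse 1 to 1.72 in mouse 3, and Cox7b2 from -0.911 in mouse 3 to 0.711 in mouse 1. Apart from Cox6a2, the muscle and testis forms had the wider spread, and without levels it cannot be told how much signal they had. Cox6b1, the widely expressed partner of the untested Cox6b2, was -0.074 ± 0.17, and -0.021 without mouse 5, -0.12 without mouse 1 and -0.11 without mouse 2. Cox4i1, the one Cox4 gene found, was -0.096 ± 0.13, with mouse 3 at 0.124 and the other 4 below 0, and -0.15 without mouse 3. Probe sequences were not used here, so binding of 1 probe to the transcripts of several isoforms was not examined.

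**Figure D4:**
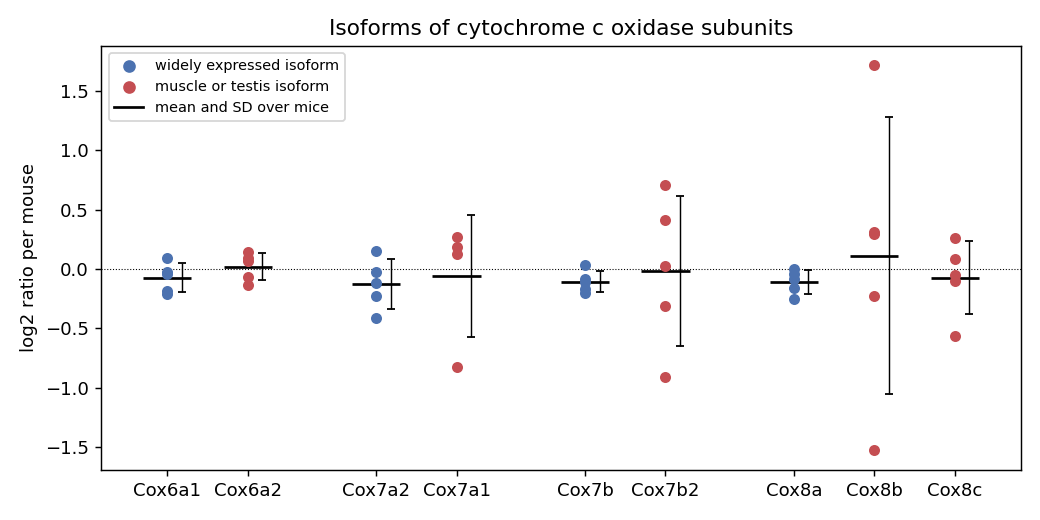
Log2 ratio per mouse (points) with mean and SD over mice for subunits of cytochrome c oxidase that have a widely expressed form (blue) and a muscle or testis form (red). The blue points stay between -0.417 and 0.155, while Cox8b runs from -1.53 to 1.72.

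Complex V, the ATP synthase, has a catalytic F1 head, a ring of c subunits that turns, a peripheral stalk that holds the head still, and further membrane subunits that shape the enzyme's dimers. The F1 head was below 0 in 5 of 5 genes, with a median of -0.078, and the membrane subunits in 5 of 5, with a median of -0.093, while the stalk had 2 of 4 below 0 and a median of -0.0098. When the Cy3 columns were turned, 3 of 5 genes of the F1 head (median -0.16), 1 of 5 membrane subunits (median 0.056) and 2 of 4 stalk genes (median -0.016) were below 0. Of the c subunit genes Atp5g3 was found, at -0.22 ± 0.37, with mice 1 and 4 at -0.565 and -0.582, mouse 5 at 0.289, and a mean of -0.35 without mouse 5 and -0.13 without mouse 4. Its Cy5 mean was 0.198 and its Cy3 mean -0.635.

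Atp5o, the stalk subunit at the top of F1 that gives the enzyme its oligomycin sensitivity, had the smallest unadjusted p of all members. It was -0.244, -0.419, -0.076, -0.083 and -0.347 in mice 1 to 5, with a mean of -0.23 ± 0.15 (n = 5) and a 95% interval from -0.464 to -0.0035. Its limma p was 0.0475 unadjusted and 0.918 adjusted. All 5 mice were below 0, and so were both dye orientations (-0.145 in Cy5, -0.322 in Cy3). The 2 probes of Atp5o differed, with means of -0.408 and -0.060. Atp5md, a small membrane subunit, had a mean of -0.23 ± 0.28, with mice 2, 3 and 5 between -0.578 and -0.340 and mice 1 and 4 at 0.045 and 0.059, and -0.15 without mouse 3. Atp5mpl, another small membrane subunit, was below 0 in all 5 mice, from -0.231 to -0.0092, at -0.093 ± 0.083. Atp5d, the delta subunit of the central stalk, was -0.14 ± 0.17 with 4 of 5 mice below 0, and -0.089 without mouse 5. The catalytic beta subunit Atp5b was -0.13 ± 0.18, with mice 1 and 2 above 0 and mice 3 to 5 below, and the alpha subunit Atp5a1 -0.067 ± 0.14.

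The assembly factors with an Nduf symbol build complex I and are no part of it. Of the 4 tested, 3 were below 0 as deposited, with a median of -0.25 and a median SD of 0.897. With the Cy3 columns turned, 0 of the 4 were below 0, with a median of 0.35. On the Cy3 array of mouse 3, which stood apart, their median was -2.25, with Ndufaf1 at -5.72, Ndufaf7 at -2.54 and Ndufaf6 at -1.96, while on the other 9 arrays the medians lay between -0.481 and 0.485. Ndufaf5, which modifies the core subunit Ndufs7 early in assembly, had the smallest SD of the 4, at -0.133, -0.057, -0.401, -0.221 and -0.271, with a mean of -0.22 ± 0.13 (n = 5; limma adjusted p 0.918). Ndufaf1 was -0.61 ± 1.28 and Ndufaf6 0.42 ± 1.08, both with their lowest value in mouse 3, at -2.78 and -1.19. Ndufaf7 was -0.27 ± 0.71.

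If all columns run Cy5 over Cy3, the columns with the mutant in Cy3 have to change sign before a mouse's arrays are averaged, and the result is then a different one. With the sign turned, 33 of 75 genes were below 0, against 55.6% of all genes, and the median was 0.063, against -0.051 over all genes, and complexes IV and V had medians of 0.017 and 0.056. Still 0 of 75 genes passed, against 0.0% of all 8711 genes. At an unadjusted p under 0.05, 19 of 75 (25.3%) were counted, against 26.2% of all genes, so the members stood at the level of the whole array. Ndufa6 had the smallest adjusted p of the members under this reading, 0.0977 by limma, with a mean of 0.58 ± 0.15 (SD, n = 5 mice). This adjusted p was shared by 324 genes, and Ndufa6 ranked 56 by unadjusted p among all genes. The members that came next were Ndufb8, a distal arm subunit of complex I, at -0.78 ± 0.45, Cox7c at 0.36 ± 0.095, Atp5e, the epsilon subunit, at 0.55 ± 0.30, and Atp5g3 at 0.42 ± 0.20. Their adjusted p by limma was between 0.102 and 0.108. In size the members were larger under this reading, with a median of 0.162 against 0.093 as deposited, and all genes likewise, with 0.231 against 0.113. Over the members' probes, arrays of the same orientation had a rank correlation between 0.134 and 0.580 and arrays of opposite orientation between -0.543 and -0.171, leaving out the array that stood apart. These correlations are across probes, which are not independent replicates.

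**Figure D5:**
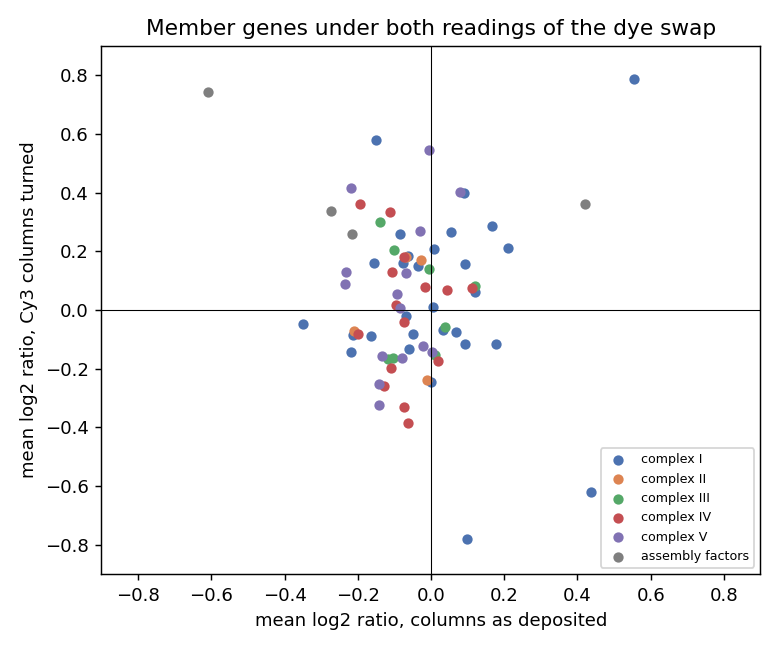
Mean log2 ratio of each tested gene with the columns as deposited (horizontal) against the mean with the Cy3 columns turned (vertical), coloured by complex. As deposited 51 of 75 points lie left of 0, and with the Cy3 columns turned 33 lie below 0.

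Where a gene had several probes, the gaps between them were of the order of the ratios described here. For 19 member genes with at least 2 tested probes, the highest and lowest probe means differed by a median of 0.125, against 0.226 over 2304 such genes. The median size of a member's mean was 0.093. All probes had the same sign in 12 of 19, and in 1023 of 2304 over all genes. The widest gaps were those of Ndufa5, a Q module subunit (-0.23 and 0.47), Uqcrq, the ubiquinone-binding small subunit of complex III (-0.21 to 0.37 over 3 probes), and Atp5h, the d subunit of the stalk (-0.14 to 0.31 over 3 probes). The means of these 3 genes, 0.12 ± 0.58, -0.0059 ± 0.12 and 0.080 ± 0.24, therefore average probes of opposite sign. For Ndufa5 the steadier probe was the negative one, with an SD of 0.094 against 1.12. The 4 probes of Cox4i1 ran from -0.25 to 0.14. Before averaging, 4 single probes of members had an unadjusted p under 0.05, 1 each for Atp5o, Cox4i1, Ndufa3 and Ndufa5, with an adjusted p of at least 0.911 by limma. Of all 16939 probes 3.73% had such a p, so 4 of the 100 member probes is near the share over the array.

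Since these genes are known for shared promoter elements, the RefSeq promoters (mouse build GRCm38.p6, 250 bases before to 50 bases after the start) of the 65 members found in that table were searched on both strands. The palindrome CGCATGCG, the inner part of the nuclear respiratory factor 1 (NRF1) motif, was present for 8 of 65 members (12.3%), against 4.004% of 7043 genes tested on the array and 2.07% of all 27025 genes of the table. CCGGAAG, the core bound by ETS factors such as GABP (nuclear respiratory factor 2), was present for 26.2%, against 18.1% and 9.93%. AAGATGG, the YY1 core, was present for 16.9%, against 8.32% and 7.28%, and TGACCTTG, the oestrogen-related receptor element, for 4.62%, against 1.46% and 1.76%. TATAAA was found for 12.3%, against 9.87% and 15.7%, and CCAAT for 47.7%, against 42.8% and 41.1%. The 8 NRF1 matches belonged to Ndufa8, Uqcrc1, Uqcr11, Cox6a1, Atp5j, Atp5k, Atp5l and the assembly factor Ndufaf5. To show the element in its setting, its surroundings are given for the 5 genes in which it lies wholly before the start, 5′ to 3′ on the gene's strand, with the motif in capitals.
Ndufa8, chr2:36049339-36049363, minus strand: tgcgcgtcgctggagaCGCATGCGc
Cox6a1, chr5:115349096-115349135, minus strand: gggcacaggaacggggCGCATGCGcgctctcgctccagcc
Atp5j, chr16:84835100-84835139, minus strand: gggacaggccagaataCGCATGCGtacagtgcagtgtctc
Atp5k, chr5:108434425-108434464, minus strand: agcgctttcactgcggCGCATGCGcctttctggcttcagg
Atp5l, chr9:44920960-44920992, minus strand: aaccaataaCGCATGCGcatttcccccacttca

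The ratios as deposited were set beside the elements, and the turned reading was not used for them. The 8 tested members with CGCATGCG had a median of -0.053, with 5 below 0, and the 53 tested members without it -0.062, with 36 below 0. For CCGGAAG the medians were -0.069 over 17 genes with it and -0.061 over 44 without, for AAGATGG -0.059 over 10 and -0.062 over 51, and for TGACCTTG -0.069 over 3 and -0.061 over 58. For TATAAA they were -0.023 over 8 genes with it and -0.068 over 53 without. For CCAAT 22 of 29 genes with it and 19 of 32 without were below 0, with medians of -0.074 and -0.055. These differences were not tested. Among the 5 genes printed, Ndufa8, a twin-cysteine subunit of the proximal arm, was 0.093 ± 0.26, Cox6a1 -0.074 ± 0.12, Atp5j, the F6 subunit of the stalk, 0.0018 ± 0.13, Atp5k, the e subunit, -0.084 ± 0.19, and Atp5l, the g subunit, -0.031 ± 0.29. A match is a description of the sequence and not evidence of binding in these brains.

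The pathways around the respiratory chain were read from lists chosen by function, and 0 of their genes passed the test. The wider list of respiratory assembly factors, which insert haem, copper and iron-sulphur clusters and join subunits, had 19 of 29 genes below 0 and a median of -0.12, and with the Cy3 columns turned 16 of 29 and -0.013. Its 2 genes with the smallest p were Oma1, a protease of the inner membrane, at -0.45 ± 0.29 in 4 mice, and Lyrm7, which loads the Rieske protein, at -1.22 ± 1.57. The tricarboxylic acid cycle and pyruvate oxidation, which supply the electrons, had 9 of 19 genes below 0 and a median of 0.001, and turned 12 of 19 and -0.14. Idh3g, a subunit of the NAD-dependent isocitrate dehydrogenase, was -0.15 ± 0.036 in this list, and Pdhx of the pyruvate dehydrogenase complex -0.25 ± 0.26. Carriers, porins and kinases that move ATP and metabolites had 4 of 9 below 0, and 4 of 9 turned, with the ADP/ATP carrier Slc25a5 at -0.19 ± 0.080 and the aspartate/glutamate carrier Slc25a12 at -0.35 ± 0.37.

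Regulators of mitochondrial genes had 5 of 14 below 0 and a median of 0.052 as deposited, and 8 of 14 and -0.056 with the Cy3 columns turned. Tfam, which packages and transcribes mitochondrial DNA, was -0.20 ± 0.16, and Top1mt, its topoisomerase, 0.32 ± 0.40. Glycolysis, the other route to ATP, had 6 of 13 genes below 0 and a median of 0.018 (turned, 6 of 13 and 0.014), with the hexokinase Hk1 at -0.16 ± 0.12 and the pyruvate kinase Pkm at 0.22 ± 0.26. The vacuolar ATPase, a proton pump of lysosomes and synaptic vesicles that is related to complex V, had 11 of 16 below 0 and a median of -0.062 (turned, 10 of 16 and -0.090), with Atp6v0a1 at -0.45 ± 0.40 and Atp6v1d at -0.23 ± 0.29. Mitochondrial antioxidant enzymes had 5 of 6 below 0 and a median of -0.038 (turned, 5 of 6 and -0.18), with the manganese superoxide dismutase Sod2 at -0.071 ± 0.096 and thioredoxin Txn2 at -0.068 ± 0.085.

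Of the markers of brain cell types, 0 passed the test. The median was -0.054 over 10 neuronal markers, of which 7 were below 0, -0.045 over 9 astrocyte markers, 0.017 over 5 oligodendrocyte markers, -0.022 over 6 microglial markers and 0.025 over 5 endothelial markers. Under the turned reading these medians were -0.18, -0.0039, -0.18, -0.16 and 0.024. As deposited, 5 of 9 astrocyte, 2 of 5 oligodendrocyte, 3 of 6 microglial and 2 of 5 endothelial markers were below 0. By the median of gene means, neurons and respiratory subunits were on the same side of 0 as deposited and on opposite sides when turned. By mouse they did not run together. The neuronal median was 0.0655, 0.004, 0.086, -0.0065 and -0.16 in mice 1 to 5, while that of the subunits was below 0 in all 5. The part of cell types in the subunits' values was not tested. The 2 genes with the smallest p were Uchl1 (0.16 ± 0.066) and Syp (-0.098 ± 0.14) for neurons, and Aqp4 (-0.20 ± 0.14) and Glul (0.16 ± 0.082) for astrocytes. For oligodendrocytes they were the myelin gene Cnp (0.27 ± 0.068) and Cldn11 (-0.084 ± 0.24). They were C1qa (-0.17 ± 0.088) and Ctss (-0.15 ± 0.079) for microglia, and Cdh5 (-0.089 ± 0.098) and Flt1 (-0.18 ± 0.55) for endothelium. Other markers on these lists lay above 0, with means up to 0.27 for microglia and 0.28 for endothelium. Uchl1, Glul and Cnp were above 0 in all 5 mice, and C1qa and Ctss below 0 in all 5. Of the 4 choroid plexus markers 3 were below 0, with a median of -0.20 (turned, -0.042). Among them Ttr, the thyroxine carrier of that tissue, was -0.35 ± 0.21 and Sostdc1 -0.32 ± 0.14, both below 0 in all 5 mice. Of 11 markers of kidney tubule, a tissue outside the brain, 4 were below 0, with a median of 0.12, and turned 6 of 11, with -0.17. Among them Napsa was 0.89 ± 0.57, above 0 in all 5 mice, and Fxyd2 -0.65 ± 0.83, below 0 in all 5. The 3 red blood cell markers had a median of 0.030 (turned, 0.028), with Slc4a1 at 0.15 ± 0.74 in 4 mice and Alas2 at 0.030 ± 0.15.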

How the data were processed

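The deposited values are log2 ratios that the authors made from two-colour arrays, with the scale read from their range. Extraction, indirect labelling and the dye swap are per the labels' protocols, while the sources used here do not give the scanner, background correction or normalization. Each array repeats 1 extreme value, which was kept, and 2 member ratios hold it, on probes of Cox6a1 and Cyc1 that the main test leaves out. Before centring it lay between 16.49 and 17.64 on every array with the mutant in Cy5. On every array with the mutant in Cy3 it lay between -17.37 and -16.44. What this sign says about the direction of the Cy3 columns was not tested. Gene names come from the platform annotation, and 109 of 109 member probes matched the RefSeq table with 0 symbols altered.

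Columns were centred on their median and the 2 arrays of a mouse averaged as deposited. Probes with both arrays in at least 4 mice, and genes as the mean of their tested probes, were tested against 0 with lmFit and eBayes (limma 3.58.1, R 4.3.3), with Benjamini-Hochberg adjustment over all probes or genes and a threshold of 0.05. The fit was tested on simulated data. Mice were the replicates, and as the pool is 1 control sample the p-values leave out the spread between wildtype mice. The arrays of a mouse had a within-mouse correlation of -0.24, and -0.020 with dye as a covariate. Named genes were those with the smallest p in each complex (5, 3, 4 and 4 in complexes I, III, IV and V), complex II, the isoform sets, the 3 genes with the widest probe gaps and 2 per other list; further genes were added after their values were seen. Members and lists were chosen with earlier results of these data known. Alternatives were other centring, scaling, filters, dye orientations, replicate structures and probe choices.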

Additional observations from a re-analysis of the deposited data

Results flagged for a closer look

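Among the 32 member genes named by the rule above, each measured in 4 or 5 mice, 2 had a mouse farther from the rest than Dixon's 95% limit allows. Chance gives this for about 1 in 20 genes, and the share over all genes is not given here. In Sdhd, mouse 3 was at 0.392 while the other 4 mice lay between -0.229 and -0.130, a gap of 0.84 of the whole range. In Cox7a1, measured in 4 mice, mouse 1 was at -0.827 while the others lay between 0.130 and 0.269, a gap of 0.873 of the range. That value rested on 1 array, since mouse 1 read -1.605 on its Cy5 array and -0.048 on its Cy3 array.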

How the results depend on the processing

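Every alternative left 0 member genes past the adjusted threshold of limma, and every one run on probes 0 member probes (the choice of the most complete probe applies to genes). The count over all genes tested was also 0 in each alternative, so these counts do not set the members apart. The replicate block (all 10 arrays, mouse as random block, with or without dye) also gave 0 and turned no named gene. With the Cy3 columns turned, 33 member genes were below 0, and the medians were 0.063 for all members, 0.050, 0.017 and 0.056 for complexes II, IV and V; the named genes that turned were Ndufa2 (0.159), Ndufa6 (0.578), Ndufa7 (-0.114), Sdhd (0.180), Sdha (0.172), Uqcr10 (0.299), Uqcrh (0.206), Cox7c (0.360), Cox7b (0.130), Atp5o (0.0886), Atp5md (0.130), Atp5g3 (0.416), Cox4i1 (0.0173), Cox6a2 (-0.175), Cox6b1 (0.181), Cox7b2 (0.0784) and Uqcrq (0.138). With the Cy5 arrays alone, the members' median was 0.0046 and the means were 0.0046 for Ndufa2, 0.428 for Ndufa6, 0.110 for Sdhd, 0.144 for Sdha, 0.159 for Uqcr10, 0.105 for Uqcrh, 0.166 for Cox7c, 0.0226 for Cox7b, 0.198 for Atp5g3, -0.155 for Cox6a2, 0.107 for Cox6b1, 0.0628 for Cox7b2 and 0.132 for Uqcrq. With the Cy3 arrays alone, the median was -0.117 for members, -0.0759, -0.169, 0.0436 and -0.149 for complexes I, II, III and V, and the means -0.001 for Ndufb2, 0.225 for Sdhb, 0.0602 for Uqcrc2, 0.0878 for Cox8a, 0.111 for Atp5d, 0.130 for Cox7a2 and -0.322 for Atp5h; Cox6a1 was -1.74 there, since a probe that holds the extreme value of -16.43 on the Cy3 array of mouse 2 enters. Without centring Uqcrq was 0.00168, and with columns scaled Sdha was 0.00772, Cox7b2 0.115 and Cox8b -0.221. Asking for 3 mice put Cox6a1 at 0.138, and the most complete probe put Ndufa5 at -0.231. An alternative added after the data were seen, mouse 3 by its Cy5 array alone, gave -0.0352 for complex I, 0.0536 for Sdha, -0.0519 for Cox6a2, 0.0868 for Cox7b2 and -0.118 for Cox8b. Leaving out 1 mouse at a time gave ranges that crossed 0 for the medians of complex I (-0.0316 to 0.0225) and complex III (-0.085 to 0.0073), Atp5h (-0.00617 to 0.154), Cox6a2 (-0.0106 to 0.0587), Cox7a1 (-0.172 to 0.193), Cox7b2 (-0.197 to 0.208), Cox8b (-0.288 to 0.523), Cox8c (-0.158 to 0.049), Ndufa5 (-0.0606 to 0.299), Sdha (-0.0772 to 0.0335), Sdhb (-0.0331 to 0.0168) and Uqcrq (-0.0437 to 0.0248). The causes were not tested. The single pool, the unstated direction of the ratios and the missing intensities limit every value.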
